A study of Mus musculus with 6 samples.

Results

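To describe how the enzymes that set and remove chromatin marks were expressed in lung cancer cells grown with stromal cells, 59 genes were taken from the 18182 genes of the files by their symbols. They comprise the Kmt, Setd and Ezh lysine methyltransferases, the Prmt arginine methyltransferases, the Kdm demethylases, the Dnmt DNA methyltransferases, the Tet dioxygenases and the Hdac histone deacetylases. All 59 passed the filter on low counts that left 13353 genes for the test. The 11 histone deacetylases remove acetyl groups and not methyl groups, so that the 59 are writers and erasers of more than methylation, and some Setd enzymes act on other proteins than histones (Setd3 on actin, Setd6 on the NF-kappaB subunit RelA).

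RNA was sequenced from LLC cells, the Lewis lung carcinoma line of C57BL/6 mice, which carried red fluorescent protein (RFP). Wild type C57BL/6 mice received subcutaneous LLC-RFP alone or LLC-RFP with bone marrow-derived mesenchymal stem cells (BMSCs), and RFP-positive cells were sorted from the primary tumours by flow cytometry. Each group had 3 libraries, called here LLC alone and LLC with BMSCs, replicates 1 to 3. The 2 groups shared the cell line, its reporter, the host strain, the site of injection and the sort, and the stated difference was the co-injected BMSCs. Per the paper, cells were collected when tumours reached a set size. The time of growth may therefore have differed between the groups and is not given in the sources used here. For its allograft work the paper names female mice. The model is 1 cell line, the number of tumours or mice behind a library is not given in the sources used here, and p values measure the spread between these libraries, which may be technical.

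Lysine methylation of histone tails is read by position. Methylation of H3K4 marks promoters and enhancers, H3K36 methylation marks transcribed gene bodies, and H3K27 methylation by the Polycomb complex PRC2 marks silent genes. Arginine methyltransferases modify histones and many RNA-binding proteins, histone deacetylases work mostly within corepressor complexes, and DNA methylation is copied at replication by Dnmt1, set anew by Dnmt3a and Dnmt3b and oxidized by the Tet enzymes. Many of these proteins are very large, and their transcripts are long.

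The 6 libraries held 33476347 to 46189113 estimated counts. LLC alone replicate 3 stood apart. Over the 59 genes, the median chi-square of its counts against replicates 1 and 2 was 24.1 and 23.5, whereas replicates 1 and 2 differed by 0.913. LLC with BMSCs replicates 2 and 3 differed by 0.734 and replicate 1 from them by 5.31 and 4.59, where sampling noise alone has a median of 0.455. Among markers of other cells, CPM (each count scaled to a common library total) summed over 8 neutrophil markers were 0.469 to 0.789 in LLC alone and 21.0 to 23.9 in LLC with BMSCs, with S100a9 and S100a8 leading and Ly6g under 0.1 in every library. The sum of 8 BMSC or fibroblast markers was 267 to 324 CPM against 675 to 703 CPM, with Col3a1 leading in both groups. All 7 that were tested were higher in LLC with BMSCs. Col1a1 and Dcn had 0.083 and 0.195 CPM on average in LLC alone against 11.8 and 11.5 CPM (log2 fold changes of 7.14 and 5.87). Pdgfra and Pdgfrb, well expressed in both groups, had log2 fold changes of 0.47 and 0.41. The sum of 8 macrophage markers was 21.6 to 25.7 CPM against 29.5 to 31.4 CPM. Of 7 tested, 4 were higher in LLC with BMSCs. These were Adgre1, at 0 in every LLC alone library, and Itgam, Mrc1 and Csf1r (log2 fold changes of 6.96, 3.00 and 2.22). Cd68 and Cx3cr1 were lower (log2 fold changes of -0.89 and -1.58), and Cd14 was not called. The sum was 0.390 to 0.542 CPM against 2.52 to 2.74 CPM for the 6 lymphocyte markers listed in the files, and 0.717 to 0.932 CPM against 0.935 to 1.15 CPM for 6 endothelial markers. In the lymphocyte sum the difference was that of Ptprc, a gene of all leukocytes, at 0.159 CPM against 2.35 CPM on average, with Cd3e and Cd4 at or near 0 and Cd8a at 0.190 CPM against 0.113 CPM. Of 5 epithelial markers, Krt8 had 157 to 196 CPM and Krt18, Krt19, Epcam and Cdh1 were under 1 CPM in every library. The part of these cells in the differences given next was not tested, and in bulk samples fewer cells of a type and less RNA per cell cannot be told apart.

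Between the groups, 17 of the 59 genes were higher and 11 lower in LLC with BMSCs by edgeR's quasi-likelihood test at an adjusted p under 0.05, and 31 did not pass. These are shares of 28.8% and 18.6%, beside a background over all 13353 tested genes of 31.5% higher and 31.3% lower. In either direction 47.5% of the enzymes passed, against 62.9% of all genes. Normalized counts of the 2 groups did not overlap for 40 of the 59 (67.8%), against 71.3% of all genes. The shares of the enzymes were therefore near or below those of all genes. Most of the differences were small, since 5 of the 28 genes that passed changed by 1 or more on the log2 scale. These were the deacetylase Hdac7 on the high side and Prmt6, Prmt3, Kdm4d and Tet1 on the low side. Small differences were common among all genes too, since 74.8% of all called tested genes changed by less than 1. The median log2 fold change of the 59 was 0.15, against 0.012 over all tested genes.

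Transcript length moved with these differences. The median transcript length of the enzymes was 4610 bases, against 2886 bases for all tested genes, and 27 of the 59 (45.8%) were in the longest length quintile, from 4850 bases upwards. The median log2 fold change of all tested genes went from -0.28 in the shortest quintile over -0.10, 0.036 and 0.0997 to 0.26 in the longest. The share of all genes called higher went from 14.5% to 45.6% over the same quintiles, and the share called lower went from 46.5% to 14.4%. If the enzymes had been called at the rates of their own quintiles, 22.6 would have been higher and 14.2 lower, and the quintile medians weighted by their numbers give 0.12. The counts of 17 and 11 were both below these values. In the longest quintile 6 of 27 enzymes were higher and 2 lower. In the next 6 of 10 were higher and none lower (0 of 10), against 39.1% higher and 25.4% lower of all genes in that quintile. The 10 enzymes of that next quintile had a median log2 fold change of 0.44, against 0.0997 for all genes of that length.

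**Figure D1:**
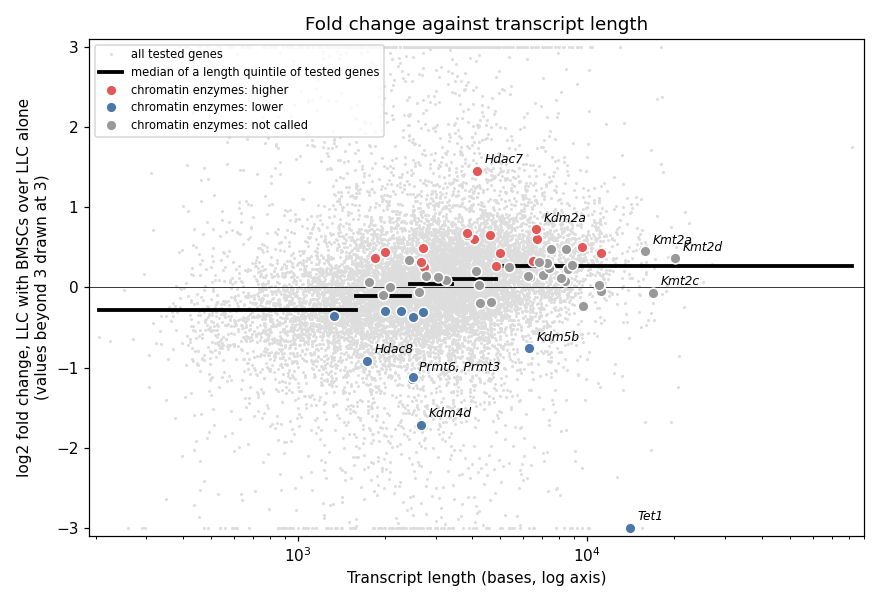
Log2 fold change from edgeR (y axis, LLC with BMSCs over LLC alone) against transcript length in bases (x axis, log scale) for 13353 tested genes (grey) and the 59 enzymes (coloured by their call), with black bars for the median of each length quintile. The bars go up from -0.28 to 0.26, Hdac7 lies above the other enzymes, and Tet1, whose fitted value is beyond the axis, is drawn at -3.

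LLC alone replicate 3 differed from replicates 1 and 2 along transcript length. For 57 enzymes with a mean normalized count over 20 in LLC alone, the log2 ratio of replicate 3 to the mean of replicates 1 and 2 had a Pearson correlation of -0.91 with log2 transcript length across genes, which share the 3 libraries and are not independent. The ratio was -1.13 for Kmt2a and -1.11 for Kmt2c, and 39 of the 59 enzymes had fewer normalized counts in replicate 3 than in both other replicates. When each library's trend over transcript length was taken out of the edgeR fit, 13 enzymes were higher and 22 lower, with a median of -0.024. Over all tested genes, the same fit called 4000 higher and 5360 lower with a median of -0.063. Of the 17 genes, 13 remained higher, and Kdm3a, Setd1a, Kdm5c and Kdm7a did not pass. The 11 lower genes remained lower, and 11 genes that had not passed were called lower. With LLC alone replicate 3 left out as well, a setting chosen after the data were seen, 14 were higher and 24 lower. The same setting called 29.4% of all tested genes higher and 39.7% lower.

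**Figure D2:**
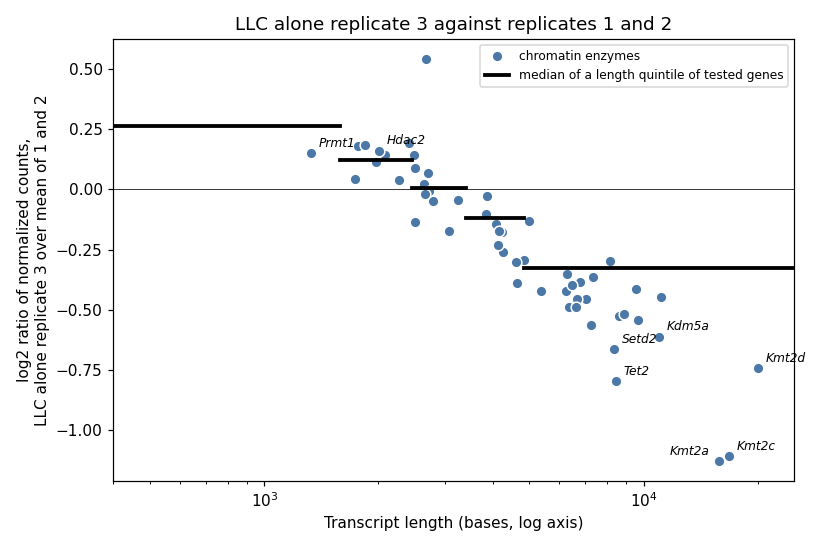
Log2 ratio of the normalized count of LLC alone replicate 3 to the mean of replicates 1 and 2 (y axis) against transcript length in bases (x axis, log scale) for 57 enzymes, with black bars for the median of all tested genes in each length quintile. The enzymes go from above 0 among short transcripts to -1.13 for Kmt2a, and the longest quintile of all genes has a median of -0.33.

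In the main test and in every alternative fit that tested them, 20 enzymes passed in the same direction. Hdac7, Kdm2a, Dnmt3b, Hdac5, Kdm4b, Setd5, Hdac6, Hdac10, Hdac3, Kdm1b and Setd6 were the 11 higher ones, and Tet1, Kdm4d, Prmt6, Prmt3, Hdac8, Kdm5b, Prmt1, Hdac2 and Prmt7 the 9 lower ones. Of the 19 alternatives, 16 tested Tet1 and 17 tested Kdm4d. Levels are given next as FPKM, which is per transcript length, and differences as log2 fold changes of counts.

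**Figure D3:**
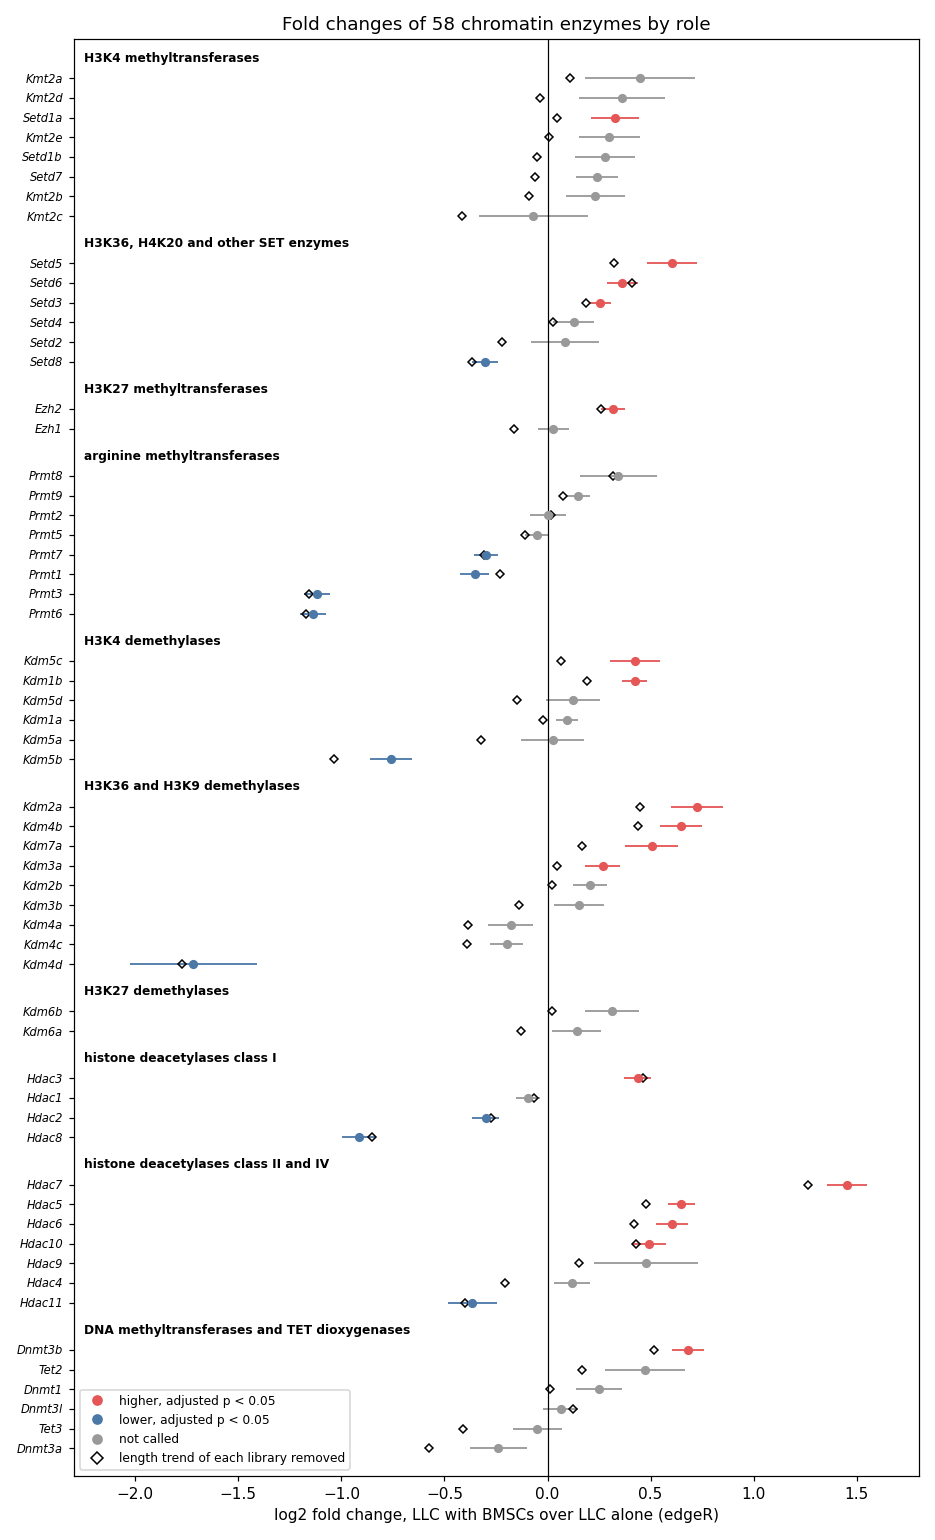
Log2 fold changes from edgeR (x axis, LLC with BMSCs over LLC alone) of 58 enzymes grouped by role, as filled points with bars of 1 standard error and coloured by their call, with open diamonds for the fit without each library's length trend. Tet1 is left out because its LLC with BMSCs libraries are at 0. Hdac7 at 1.45 lies to the right, and Prmt3, Prmt6 and Kdm4d at -1.12, -1.14 and -1.72 lie to the left. The diamonds of the long Kmt2 genes lie near or below 0.

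Of the 10 role groups, the arginine methyltransferases had the most genes that fell. Of 8, 4 fell and none rose (0 of 8), beside 31.3% lower and 31.5% higher over all tested genes. These 8 lie in the 3 shortest length quintiles, in which 46.5%, 38.7% and 31.6% of all genes were lower. Their summed level was 367, 381 and 401 FPKM in LLC alone and 295, 312 and 300 FPKM in LLC with BMSCs, so that the groups did not overlap. Prmt1 alone, the largest part of this sum, went from 216 to 171 FPKM on average. Prmt6, which places asymmetric dimethylation on H3R2, had 29.3, 28.8 and 31.9 FPKM in LLC alone and 14.1, 13.8 and 13.7 FPKM in LLC with BMSCs. Each LLC with BMSCs library was below every LLC alone library, and the gene fell by 1.14 on the log2 scale (SE 0.063, adjusted p = 5.2e-06 by edgeR's quasi-likelihood test). In the reference annotation an exon of C130013H08Rik on the opposite strand, for which no counts were given, overlaps an exon of Prmt6 by 984 bases. Prmt3, a cytosolic enzyme that methylates the ribosomal protein Rps2, had 25.0, 25.9 and 26.9 FPKM against 11.3, 12.5 and 12.5 FPKM. It fell by 1.12 on the log2 scale (SE 0.064, adjusted p = 5.91e-06 by edgeR's quasi-likelihood test), about as far as Prmt6. Prmt1, the main source of asymmetric dimethylarginine in cells, was the most abundant of the 59 genes. It had 202, 216 and 230 FPKM in LLC alone against 163, 180 and 171 FPKM in LLC with BMSCs. The groups did not overlap here either, but the fall was smaller, at 0.35 on the log2 scale (SE 0.070, adjusted p = 0.00302 by edgeR's quasi-likelihood test).

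Prmt7, which makes monomethylarginine, fell by 0.30 on the log2 scale (SE 0.057, adjusted p = 0.00253 by edgeR's quasi-likelihood test). An exon of Smpd3 on the opposite strand overlaps an exon of Prmt7 by 247 bases in the reference annotation, Smpd3 had a log2 fold change of -1.19, and whether counting used strand is not given in the sources used here. Prmt5, the main enzyme for symmetric dimethylarginine, had a log2 fold change of -0.053 (SE 0.056, adjusted p = 0.431 by edgeR's quasi-likelihood test) at 65.5 and 64.1 FPKM on average, and was called lower at -0.11 with the length trend removed. Prmt2, Prmt9 and the weakly expressed Prmt8 had log2 fold changes of 0.0022, 0.15 and 0.34 and did not pass. Carm1, the arginine methyltransferase also known as Prmt4, is listed under its own symbol outside the 59 and was higher, with a log2 fold change of 0.51 (SE 0.084).

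The promoters of the 3 arginine methyltransferases of largest change, each of which fell, are shown. The windows are RefSeq sequences of build GRCm38.p6, from 250 bases before to 50 bases after the start, 5′ to 3′ on the gene's strand, at chr3:110250950-110251249 (minus strand) for Prmt6, chr7:49778108-49778407 (plus strand) for Prmt3 and chr7:44986371-44986670 (minus strand) for Prmt1. Capitals mark the E-box CACGTG and the GC box GGGCGG, the latter on either strand.
Prmt6: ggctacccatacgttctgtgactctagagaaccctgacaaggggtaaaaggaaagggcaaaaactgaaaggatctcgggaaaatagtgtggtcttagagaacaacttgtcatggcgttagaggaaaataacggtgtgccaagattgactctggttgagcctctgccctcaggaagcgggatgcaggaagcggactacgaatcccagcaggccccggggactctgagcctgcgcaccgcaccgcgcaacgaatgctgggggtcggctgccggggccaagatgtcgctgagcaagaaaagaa
Prmt3: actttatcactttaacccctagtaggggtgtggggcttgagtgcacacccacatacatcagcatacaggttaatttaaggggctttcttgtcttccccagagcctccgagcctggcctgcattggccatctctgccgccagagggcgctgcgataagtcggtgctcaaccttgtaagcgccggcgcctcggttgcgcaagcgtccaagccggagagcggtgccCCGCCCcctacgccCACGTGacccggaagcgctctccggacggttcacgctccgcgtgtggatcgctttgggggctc
Prmt1: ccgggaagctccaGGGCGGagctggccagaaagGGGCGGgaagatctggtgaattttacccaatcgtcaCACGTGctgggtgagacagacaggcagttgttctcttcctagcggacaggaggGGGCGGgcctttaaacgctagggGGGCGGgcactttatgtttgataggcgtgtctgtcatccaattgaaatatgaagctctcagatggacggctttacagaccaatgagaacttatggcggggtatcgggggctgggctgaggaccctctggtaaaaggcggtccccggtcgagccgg
Prmt1 held 1 E-box and 4 GC boxes, Prmt3 held 1 of each, and Prmt6 held neither. Over 32851 promoter windows of the reference, 7.15% held the E-box and 35.7% the GC box. Counted per gene, the shares were 8.09% and 38.2% of 27025 genes. Of the 59 enzymes, 48 had a promoter in the reference table, of which 7 (14.6%) held an E-box and 33 (68.8%) a GC box. The E-box was found in 1 of 13 genes that rose and 2 of 11 that fell, and the GC box in 9 of 13 and 9 of 11. A match is a description of these letters and not of a bound factor.

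Among the class II and IV histone deacetylases the direction was mostly the opposite. Of 7, 4 rose and 1 fell, beside 31.5% higher and 31.3% lower over all tested genes. With the length trend removed 4 were higher and 2 lower. The summed level was 32.9, 33.2 and 29.9 FPKM in LLC alone against 60.7, 55.1 and 54.9 FPKM in LLC with BMSCs, and most of this rise was that of Hdac7. Hdac7, a class IIa enzyme that shuttles between nucleus and cytoplasm and binds MEF2 factors, had 9.74, 9.71 and 8.68 FPKM in LLC alone against 29.0, 24.6 and 24.4 FPKM in LLC with BMSCs. This was the largest rise of the 59, from 9.38 ± 0.604 to 26.0 ± 2.62 FPKM (SD, n = 3), or 2.74-fold in the fit of counts (log2 fold change 1.45, SE 0.10, adjusted p = 1.2e-05 by edgeR's quasi-likelihood test). Its gain was 68.3 CPM on average, and the part of other cells in this gain was not tested. The log2 fold change stayed at 1.26 with the length trend removed. The overlap of 1 of its exons with an exon of Slc48a1 on the opposite strand is 29 bases long, and Slc48a1 had a log2 fold change of 0.90.

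Hdac5, also of class IIa, had 6.71, 7.07 and 6.74 FPKM against 11.6, 10.4 and 10.7 FPKM, a log2 fold change of 0.65 (SE 0.064, adjusted p = 9e-05 by edgeR's quasi-likelihood test). Hdac6, the cytoplasmic tubulin deacetylase, had 5.20, 5.30 and 4.73 FPKM against 8.29, 7.94 and 7.19 FPKM, a log2 fold change of 0.60 (SE 0.077, adjusted p = 0.000321 by edgeR's quasi-likelihood test). In both genes every LLC with BMSCs library was above every LLC alone library. Hdac10, which deacetylates polyamines, rose by a log2 fold change of 0.49 (SE 0.081), and Hdac11, the class IV member, fell by 0.36 on the log2 scale (SE 0.12, adjusted p = 0.0289 by edgeR's quasi-likelihood test) from a low level of 1.11 ± 0.0751 FPKM. Hdac11 passed in 11 of 19 alternatives. Hdac4 had a log2 fold change of 0.12 and did not pass, but was called lower at -0.21 with the length trend removed, and Hdac9 was at 0.05 FPKM or less in every library.

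The Hdac7 promoter is shown as the gene of largest rise. Of its 4 start windows in the reference, the 1 at chr15:97831718-97832017 (minus strand, GRCm38.p6, RefSeq) held 2 matches to TTCNNNGAA, the palindrome known for STAT factors, in capitals.
Hdac7: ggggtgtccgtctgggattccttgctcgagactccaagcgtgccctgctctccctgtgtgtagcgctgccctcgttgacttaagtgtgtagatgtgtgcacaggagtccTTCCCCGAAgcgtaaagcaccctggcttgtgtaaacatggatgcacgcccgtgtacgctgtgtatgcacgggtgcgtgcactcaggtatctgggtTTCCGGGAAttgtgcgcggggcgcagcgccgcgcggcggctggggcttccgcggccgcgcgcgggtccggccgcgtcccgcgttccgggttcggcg
A further window of the gene held 1 match and the other two none. This motif was in 8.30% of all windows and, counted per gene, in 9.55% of the genes with a promoter. It was in 5 of the 48 matched enzymes (Dnmt3l, Hdac7, Kdm3a, Kmt2d and Setd7), of which Hdac7 and Kdm3a rose and none fell (0 of 11).

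Class I deacetylases, which include the catalytic cores of the NuRD, Sin3, CoREST and NCoR corepressors, went in both directions. Hdac3, the NCoR subunit, had 24.6, 23.8 and 26.9 FPKM in LLC alone against 34.4, 35.0 and 34.2 FPKM in LLC with BMSCs. It rose by a log2 fold change of 0.44 (SE 0.065, adjusted p = 0.000715 by edgeR's quasi-likelihood test) with no overlap of the groups. Hdac8, which deacetylates the cohesin subunit Smc3, had 8.41, 9.73 and 9.28 FPKM against 4.64, 5.01 and 5.08 FPKM. It fell by 0.91 on the log2 scale (SE 0.083, adjusted p = 6e-05 by edgeR's quasi-likelihood test). Hdac2 had 70.1, 67.3 and 76.4 FPKM against 57.6, 59.1 and 59.5 FPKM and fell by 0.30 on the log2 scale (SE 0.066, adjusted p = 0.00478 by edgeR's quasi-likelihood test). Its close paralogue Hdac1 was at 102, 102 and 110 FPKM against 98.2, 97.4 and 102 FPKM. The difference of Hdac1 was -0.097 on the log2 scale (SE 0.058, adjusted p = 0.181 by edgeR's quasi-likelihood test). Its estimated counts were not whole in any library, and its only listed transcript held all of its FPKM, so that reads were shared outside the gene. The summed level of class I was 205, 203 and 222 FPKM against 195, 196 and 201 FPKM.

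**Figure D4:**
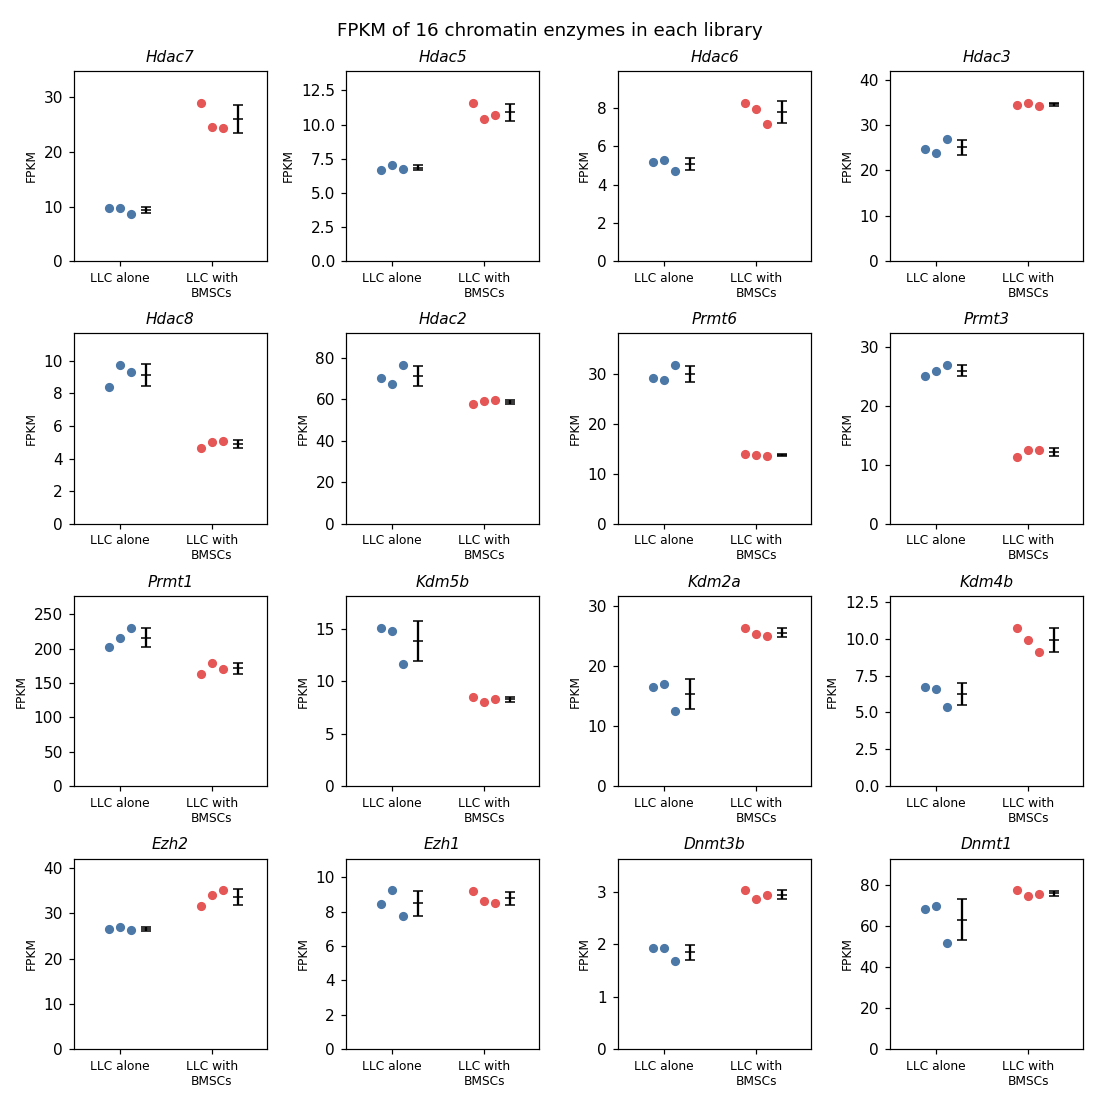
FPKM (y axis, from 0) of 16 enzymes in each of the 3 LLC alone and 3 LLC with BMSCs libraries (points), with the mean and SD of each group in black. Hdac7 goes from 8.68 to 9.74 FPKM up to 24.4 to 29.0 FPKM, Prmt6, Prmt3 and Hdac8 lie lower in LLC with BMSCs, and the ranges of Ezh1 overlap.

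The corepressor partners were read from a list of 21 subunits of the Sin3, NuRD, CoREST and NCoR complexes. Of these 7 rose and 3 fell, and with the length trend removed 8 were higher and 7 lower. Rcor2, a CoREST scaffold that holds Kdm1a and Hdac1 or Hdac2, rose the most with 14.1 ± 0.402 against 42.8 ± 2.71 FPKM (SD, n = 3) and a log2 fold change of 1.59, and Sin3a rose with 0.80. Mbd3 and Sin3b fell by 0.40 and 0.34 on the log2 scale. Of 7 sirtuins, the NAD-dependent deacetylases, 1 rose and 2 fell, and of 10 histone acetyltransferases 2 rose and 2 fell. Without the length trend the acetyltransferases were 1 higher and 6 lower and the sirtuins 2 higher and 1 lower. The acetyltransferase Kat8, which acetylates H4K16, fell by 0.87 on the log2 scale, from 12.5 ± 1.10 to 6.92 ± 0.529 FPKM (SD, n = 3).

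H3K4 methyltransferases include the longest transcripts of the 59 genes. Setd1a, a COMPASS enzyme, was the 1 of 8 that passed, with 15.9, 16.1 and 12.1 FPKM in LLC alone against 19.9, 17.6 and 17.8 FPKM (log2 fold change 0.33, SE 0.12, adjusted p = 0.0381 by edgeR's quasi-likelihood test). Its difference was 0.047 with the length trend removed. An exon of Gm49388 on the same strand overlaps an exon of Setd1a by 1056 bases, and the estimated counts of Setd1a were not whole in any library. Kmt2a, Kmt2d, Kmt2e, Setd1b, Setd7 and Kmt2b had log2 fold changes of 0.45, 0.36, 0.30, 0.28, 0.24 and 0.23, none of which passed. Setd7 was called higher at 0.13 without LLC alone replicate 3. Kmt2c was at -0.069, and it was called lower at -0.41 with the length trend removed and at -0.35 with LLC alone replicate 3 left out. The summed level of the 8 was 85.0, 86.3 and 58.1 FPKM in LLC alone and 99.6, 89.4 and 92.1 FPKM in LLC with BMSCs, with LLC alone replicate 3 the lowest of the 6. Of 10 COMPASS partners, 3 rose and 2 fell. The core subunits Rbbp5 and Ash2l fell by 0.49 and 0.39 on the log2 scale, and Paxip1 and Cxxc1 rose with 0.41 and 0.24. With the length trend removed 1 partner was higher and 4 lower, and Paxip1 did not pass.

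On the erasing side of H3K4, Kdm5b fell and Kdm5c and Kdm1b rose, of 6 demethylases. Kdm5b had 15.1, 14.8 and 11.6 FPKM in LLC alone against 8.54, 8.03 and 8.33 FPKM in LLC with BMSCs. It fell by 0.76 on the log2 scale (SE 0.10, adjusted p = 0.000418 by edgeR's quasi-likelihood test) although its transcript of 6300 bases is in the longest quintile, where all genes had a median of 0.26. The fall was 1.03 on the log2 scale with the length trend removed. Kdm1b, a flavin-dependent enzyme, had 4.56, 4.63 and 4.17 FPKM against 5.87, 6.19 and 6.09 FPKM. Its log2 fold change was 0.42 (SE 0.061, adjusted p = 0.000608 by edgeR's quasi-likelihood test), and 0.19 with the length trend removed. Kdm1b shares 498 bases of exon with Dek on the opposite strand, a gene with far more counts and a log2 fold change of -0.24. Kdm5c, which is X-linked, had 10.4, 10.6 and 7.62 FPKM against 13.8, 12.6 and 12.7 FPKM. It had a log2 fold change of 0.43 (SE 0.12, adjusted p = 0.0166 by edgeR's quasi-likelihood test), and of 0.065 with the length trend removed, where it did not pass.

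Kdm5d, its Y-linked counterpart, had 2.45, 2.53 and 1.70 FPKM against 2.39, 2.40 and 2.45 FPKM, and the groups overlapped (log2 fold change 0.13, SE 0.13, adjusted p = 0.427 by edgeR's quasi-likelihood test). It was present in every library, and Kdm5c and Kdm5d both had divided reads. Kdm1a, the core enzyme of CoREST, was at 42.6 ± 0.470 and 45.9 ± 1.72 FPKM (SD, n = 3) with a log2 fold change of 0.095 that did not pass. Kdm5a was at 0.024 and did not pass, and it was called lower at -0.32 with the length trend removed and at -0.15 without LLC alone replicate 3. The summed level of the H3K4 demethylases was 83.1, 84.4 and 72.8 FPKM in LLC alone against 82.5, 84.1 and 83.3 FPKM.

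H3K36 and H3K9 demethylases had 4 of 9 genes higher and 1 lower. Kdm2a, a CpG island-binding H3K36 demethylase, had 16.6, 17.1 and 12.5 FPKM in LLC alone against 26.5, 25.4 and 25.0 FPKM in LLC with BMSCs. It rose by a log2 fold change of 0.73 (SE 0.13, adjusted p = 0.00162 by edgeR's quasi-likelihood test), and of 0.45 with the length trend removed. Kdm4b, which demethylates H3K9, had 6.71, 6.62 and 5.37 FPKM against 10.7, 9.87 and 9.10 FPKM, a log2 fold change of 0.65 (SE 0.10, adjusted p = 0.000909 by edgeR's quasi-likelihood test). Both genes were higher in every LLC with BMSCs library than in every LLC alone library. Kdm4d, a related gene at a far lower level, had 0.28, 0.37 and 0.47 FPKM against 0.10, 0.09 and 0.16 FPKM. It fell by 1.72 on the log2 scale (SE 0.31, adjusted p = 0.00182 by edgeR's quasi-likelihood test). Kdm7a and Kdm3a rose with 0.50 and 0.27, and with the length trend removed had 0.17 and 0.046 and did not pass. Kdm4a and Kdm4c had log2 fold changes of -0.18 and -0.20 that did not pass, and were called lower at -0.39 each with the length trend removed. Kdm2b and Kdm3b, at 0.21 and 0.15, did not pass, and Kdm3b was called lower at -0.14 with the length trend removed. Of 6 other JmjC genes, 1 rose (Phf8, 0.79) and 2 fell (Kdm8 by 0.53 and Uty by 0.41 on the log2 scale), and with the length trend removed 1 was higher and 4 lower.

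Writers of H3K36, H4K20 and other SET enzymes had 3 of 6 genes higher and 1 lower. Setd5, a SET protein of chromatin complexes, had 15.9, 16.4 and 11.99 FPKM in LLC alone against 23.4, 21.9 and 22.6 FPKM in LLC with BMSCs (log2 fold change 0.60, SE 0.12, adjusted p = 0.00318 by edgeR's quasi-likelihood test). With the length trend removed the log2 fold change of Setd5 was 0.32. Setd6 had 12.3, 12.7 and 14.5 FPKM against 16, 15.6 and 17.3 FPKM (log2 fold change 0.36, SE 0.074, adjusted p = 0.00343 by edgeR's quasi-likelihood test). Setd6 is a short transcript of 1846 bases, in a quintile where all genes had a median of -0.10. Setd8, the H4K20 monomethyltransferase also called Kmt5a, had 105, 99.7 and 107 FPKM against 90.3, 81.7 and 85.8 FPKM. It fell by 0.30 on the log2 scale (SE 0.065, adjusted p = 0.00426 by edgeR's quasi-likelihood test). Setd3 rose with a log2 fold change of 0.25 (SE 0.053).

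Setd2, which places the third methyl group on H3K36, had 32.1, 33.03 and 20.5 FPKM in LLC alone against 32.7, 29.1 and 30.5 FPKM in LLC with BMSCs. The groups overlapped, with LLC alone replicate 3 the lowest of the 6, and the log2 fold change was 0.084 (SE 0.17, adjusted p = 0.678 by edgeR's quasi-likelihood test). With the length trend removed Setd2 was at -0.22 and called lower. Setd4 was at 0.13 and did not pass. Among 19 lysine and arginine methyltransferases with other symbols, 9 rose and 3 fell. The H3K9 methyltransferase Setdb1 and the H3K36 methyltransferase Whsc1 (Nsd2) rose with 0.70 and 0.68, and Smyd3 and Smyd5 fell by 0.46 and 0.39 on the log2 scale. Without the length trend 7 of the 19 were higher and 6 lower.

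The H3K27 methyltransferases are the catalytic subunits of PRC2. Ezh2, which prevails in dividing cells, had 26.5, 27.1 and 26.3 FPKM in LLC alone against 31.6, 34.2 and 35.1 FPKM in LLC with BMSCs. It rose by a log2 fold change of 0.32 (SE 0.060, adjusted p = 0.0023 by edgeR's quasi-likelihood test), or 1.25-fold, with no overlap. Ezh1 had 8.45, 9.24 and 7.77 FPKM against 9.20, 8.62 and 8.5 FPKM, and the groups overlapped (log2 fold change 0.028, SE 0.074, adjusted p = 0.762 by edgeR's quasi-likelihood test), and with the length trend removed it was called lower at -0.16. Of 9 PRC2 partners 6 rose and 2 fell, and with the length trend removed 3 were higher and 3 lower. Phf19 and Suz12 rose with 0.56 and 0.44, and the histone chaperones Rbbp7 and Rbbp4, which also serve deacetylase complexes, fell by 0.29 and 0.20 on the log2 scale. Of 15 proliferation genes, 5 rose, among them Mki67 with 1.14 and Top2a with 0.92, and 8 fell, among them Mcm2 and Mcm3 by 0.81 and 0.61 on the log2 scale.

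H3K27 demethylases did not pass. Kdm6a had 4.20, 4.20 and 3.11 FPKM in LLC alone against 3.91, 4.18 and 4.44 FPKM in LLC with BMSCs, and the groups overlapped (log2 fold change 0.14, SE 0.12, adjusted p = 0.323 by edgeR's quasi-likelihood test). Kdm6b had 8.43, 7.95 and 6.27 FPKM against 10.9, 8.57 and 9.08 FPKM. In FPKM the lowest LLC with BMSCs value lay just above the highest LLC alone value, and the log2 fold change was 0.31 (SE 0.13, adjusted p = 0.0717 by edgeR's quasi-likelihood test).

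**Figure D5:**
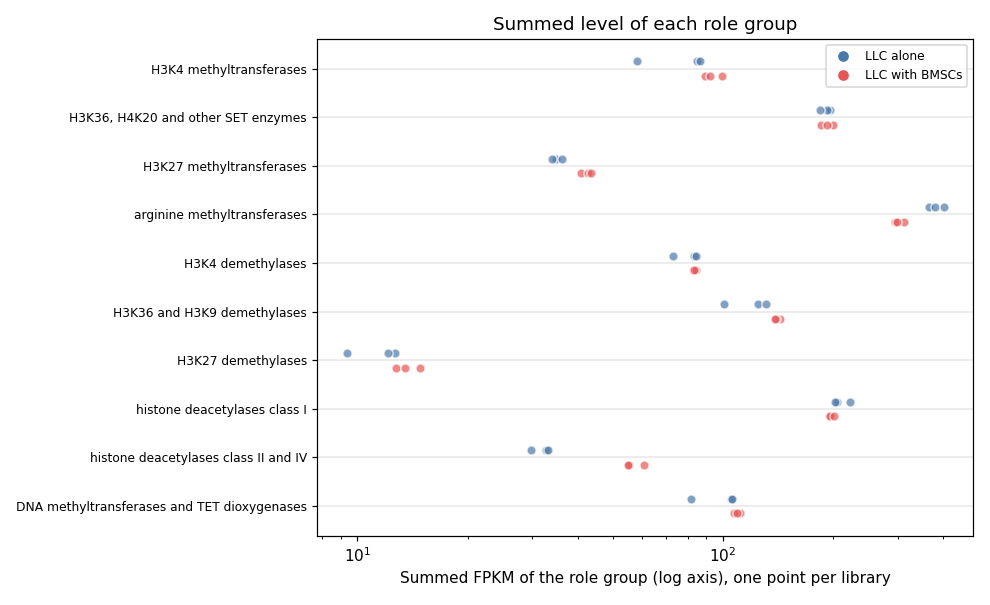
Summed FPKM (x axis, log scale) of the members of each of 10 role groups, with 1 point per library. Arginine methyltransferases go from 367 to 401 FPKM in LLC alone down to 295 to 312 FPKM in LLC with BMSCs, and class II and IV deacetylases go up from 29.9 to 33.2 FPKM to 54.9 to 60.7 FPKM.

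DNA methyltransferases and Tet dioxygenases had 1 of 7 genes higher and 1 lower. Dnmt3b, a de novo methyltransferase, had 1.93, 1.93 and 1.68 FPKM in LLC alone against 3.03, 2.86 and 2.95 FPKM in LLC with BMSCs. It rose by a log2 fold change of 0.68 (SE 0.077, adjusted p = 0.000182 by edgeR's quasi-likelihood test) with no overlap. Dnmt3a had 8.35, 8.45 and 5.88 FPKM against 6.75, 6.28 and 6.36 FPKM. LLC alone replicate 3 was the lowest of the 6 libraries, and the difference of -0.24 on the log2 scale did not pass (SE 0.14, adjusted p = 0.171 by edgeR's quasi-likelihood test). Without that library Dnmt3a was called lower at -0.40, and with the length trend removed at -0.57. Dnmt1, the maintenance enzyme, had 68.1, 69.4 and 51.4 FPKM against 77.2, 74.4 and 75.4 FPKM. The groups did not overlap, but the log2 fold change of 0.25 did not pass (SE 0.11, adjusted p = 0.0855 by edgeR's quasi-likelihood test), and it was 0.0095 with the length trend removed and 0.13, called higher, without LLC alone replicate 3. Dnmt3l, a cofactor with no catalytic activity, had a log2 fold change of 0.064 in counts that did not pass, while its FPKM was 8.61 ± 1.05 against 7.42 ± 0.185 (SD, n = 3), so that the scales differed in direction.

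Tet1 was barely present. It had 20, 9 and 14 counts in LLC alone and 0, 0 and 0 in LLC with BMSCs. Against a floor of 3 counts per library this is at least 5.0-fold lower in LLC with BMSCs (adjusted p = 0.000675 by edgeR's quasi-likelihood test). Tet1 passed the filter on low counts only through its LLC alone libraries. Its call therefore rests on the counts that let it into the test and is not separate support. In FPKM it was 0.03, 0.02 and 0.02 against 0 in the 3 others. Tet3 was the most abundant of the 3 Tet genes, with 13.1, 13.3 and 9.78 FPKM against 12.2, 11.3 and 11.9 FPKM (log2 fold change -0.049, SE 0.12, adjusted p = 0.735 by edgeR's quasi-likelihood test). It was called lower at -0.41 with the length trend removed and at -0.18 without LLC alone replicate 3. Tet2 had 4.84, 4.89 and 3.41 FPKM against 5.11, 4.75 and 4.80 FPKM, and its groups overlapped in FPKM but not in normalized counts (log2 fold change 0.47, SE 0.19, adjusted p = 0.063 by edgeR's quasi-likelihood test). Without LLC alone replicate 3 it was called higher at 0.25. Among 8 readers and partners of DNA methylation 2 rose and 1 fell, with the glycosylase Mbd4 highest at 0.60, and with the length trend removed 1 was higher and 3 lower. Uhrf1, which brings Dnmt1 to replicated DNA, had 75.5 ± 4.39 against 83.1 ± 4.94 FPKM (SD, n = 3) and did not pass. In the supply of methyl groups and cofactors 2 of 12 genes rose and 4 fell, and nicotinamide methyltransferase Nnmt fell by 1.25 on the log2 scale. The fit without the length trend had 2 higher and 6 lower.

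In order of level, Prmt1 came first among the 59, followed in LLC alone by Hdac1 at 105 ± 4.34 and Setd8 at 104 ± 3.72 FPKM (SD, n = 3), which did not differ beyond their spread. Hdac2, Prmt5 and Dnmt1 followed at 71.3 ± 4.68, 65.5 ± 1.27 and 62.9 ± 10.1 FPKM (SD, n = 3), with overlapping spreads between neighbours. In LLC with BMSCs Hdac1 was at 99.2 ± 2.41, Setd8 at 85.9 ± 4.33, Dnmt1 at 75.7 ± 1.38, Prmt5 at 64.1 ± 2.04 and Hdac2 at 58.7 ± 0.976 FPKM (SD, n = 3). Of the 59 genes, 54 had at least 1 FPKM on average in both groups.

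Transcripts of the same gene were also given in the files, 180 for the 59 genes, of which 40 had at least 2. The 3 genes with the largest change in a transcript's share of the gene's FPKM are given as a description, since shares of similar transcripts are estimates. A transcript of Dnmt3a of 9661 bases, assembled by the authors' pipeline, took 28.4%, 45.0% and 42.9% in LLC alone and 53.4%, 55.4% and 71.5% in LLC with BMSCs, with no overlap. An assembled transcript of Kdm6a of 6062 bases took 43.6%, 43.9% and 38.5% against 25.8%, 20.8% and 21.8%, also with no overlap. For Kmt2a, an assembled transcript of 14302 bases took 11.7%, 21.9% and 86.4% against 12.02%, 22.1% and 22.2%. The difference in the Kmt2a share rests on LLC alone replicate 3, in which the normalized count of the gene was furthest below the other replicates. A transcript of Dnmt1 of 5367 bases, chosen after its values were seen, had 29.4, 30.4 and 0 FPKM in LLC alone and 32.7 to 33.4 FPKM in LLC with BMSCs. Another Dnmt1 transcript of 5251 bases had 18.8 FPKM in that library and at most 0.15 FPKM in the other 5.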

How the data were processed

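RNA of sorted LLC cells was analysed in 6 libraries, 3 per group, grouped by the sample labels. The study's methods give TRIzol extraction, oligo-dT enrichment and paired reads of 100 bases on the BGISEQ-500, whereas the labels name Illumina protocols. Per the submitters' processing notes, HISAT, StringTie, Cufflinks and GATK and the build mm8 were used, with no versions or roles.

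The authors deposited estimated counts, which are not normalized and were not whole for 21.9% to 23.2% of the genes of a library because shared reads are divided, and FPKM values, which divide by transcript length and library total. The FPKM of the table of all samples equalled that of the single files. Estimated counts were rounded and tested with edgeR 4.0.16 in R 4.3.3 (TMM, default filter on low counts, quasi-likelihood test, Benjamini-Hochberg adjustment over 13353 genes, threshold 0.05). SE is the absolute log2 fold change over the root of the test statistic. The biological coefficient of variation was 9.92%. Depth was 33476347 to 46189113 counts per library, and the floor of 3 counts covers counting error only. Length and GC trends were removed as splines with 5 degrees of freedom. Alternatives used DESeq2 1.42.0 and limma 3.58.1. Simulated data were used to test the main fit, the replicate block, DESeq2, limma on log2(FPKM + 1) and the removal of the length trend. The other settings were not tested in this way. Length quintiles divide the tested genes, and CPM are counts scaled to a common library total.

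The enzymes and lists were chosen with earlier results of these data known. Any enzyme may be named, with values per library for up to 3 called genes of largest change per role and for Ezh1, Ezh2, Kdm6a, Kdm6b, Dnmt1, Dnmt3a, Dnmt3b, Tet1, Tet2, Tet3, Kdm5c, Kdm5d, Hdac1, Hdac2 and Setd2. Of other lists at most 2 called genes per direction are named, and Carm1, Uhrf1 and the Dnmt1 transcript were added after their values were seen. Of 5 genes listed to check the X and Y chromosomes, Xist, the only X-linked one, was not in the files. Of the 4 Y-linked genes, Ddx3y and Uty were lower and Eif2s3y and Kdm5d did not pass.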

Additional observations from a re-analysis of the deposited data

How the results depend on the processing

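The counts of called enzymes were within 1.5 times of 17 higher and 11 lower under DESeq2 (19 and 10), library size without TMM (19 and 11), upper-quartile scaling (17 and 12), no filter on low counts (17 and 11), a minimum of 10 counts (17 and 10), limma on log2(FPKM + 1) and on log2(FPKM + 0.1) (19 and 9 each) and close pairs of libraries summed (13 and 9). The same holds for the higher count, but not for the lower count or the median log2 fold change, once transcript length was accounted for. The lower count was 22 and the median -0.024 with the length trend removed, 24 and -0.013 with length and GC trends removed, and 24 and -0.058 with the length trend removed without LLC alone replicate 3. Of all tested genes, 40.1%, 42.5% and 39.7% were called lower in these fits, in that order, against 31.3% in the main test. Leaving out each library gave 14 to 20 higher, 10 to 17 lower and medians of 0.13 to 0.24, and the 17 lower came without LLC alone replicate 3. At an adjusted p under 0.001 and a change of 1 or more on the log2 scale, 1 enzyme was higher and 3 lower. Same-numbered libraries deviated with correlations of 0.076, -0.11 and 0.057, and differently numbered ones with -0.16 to 0.15. Correlations this weak, from 3 libraries per group, cannot decide whether the numbers pair the libraries. The fit with the replicate number as a block called 21 higher and 10 lower, and 22 lower with a median of -0.025 when the block was joined with the length trend removed.

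The log2 fold changes that changed sign belong to genes that had not passed. With the length trend removed they were Ezh1 -0.16, Hdac4 -0.21, Kdm1a -0.024, Kdm3b -0.14, Kdm5a -0.32, Kdm5d -0.15, Kdm6a -0.13, Kmt2b -0.089, Kmt2d -0.035, Setd1b -0.050, Setd2 -0.22 and Setd7 -0.063. With length and GC trends removed they were Ezh1 -0.15, Hdac4 -0.20, Kdm1a -0.013, Kdm3b -0.14, Kdm5a -0.36, Kdm5d -0.20, Kdm6a -0.18, Kmt2b -0.058, Kmt2e -0.020, Setd1b -0.020, Setd2 -0.27 and Setd7 -0.070. With the block and the length trend removed they were Ezh1 -0.16, Hdac4 -0.21, Kdm1a -0.025, Kdm3b -0.14, Kdm5a -0.32, Kdm5d -0.15, Kdm6a -0.13, Kmt2b -0.089, Kmt2d -0.039, Setd1b -0.051, Setd2 -0.22 and Setd7 -0.064. With the length trend removed and LLC alone replicate 3 left out they were Dnmt1 -0.058, Ezh1 -0.19, Hdac4 -0.17, Kdm1a -0.035, Kdm2b -0.023, Kdm3b -0.18, Kdm5a -0.34, Kdm5d -0.21, Kdm6a -0.18, Kdm6b -0.00090, Kmt2a -0.011, Kmt2b -0.12, Kmt2d -0.0019, Kmt2e -0.059, Setd1b -0.073, Setd2 -0.30, Setd4 -0.036 and Setd7 -0.066. Under limma on log2(FPKM + 1) they were Dnmt3l -0.18 and Kmt2c 0.014, and on log2(FPKM + 0.1) Dnmt3l -0.20 and Kmt2c 0.032. Close pairs summed gave Kmt2c 0.13, Prmt2 -0.048 and Tet3 0.036, upper-quartile scaling gave Ezh1 -0.0011, Kdm5a -0.0017 and Prmt2 -0.028, and the block gave Kmt2c 0.0074. Over the fits that left out 1 library the ranges were Ezh1 -0.025 to 0.089, Kdm5a -0.15 to 0.15, Kdm5d -0.019 to 0.22, Kmt2c -0.35 to 0.12, Prmt2 -0.059 to 0.060, Setd2 -0.10 to 0.20 and Tet3 -0.18 to 0.028. Among the other values for single enzymes, 951 kept direction and call, 48 passed where the main test had not and 35 no longer passed. The cause of these changes was not tested. At 3 against 3 an exact permutation test cannot go below a two-sided p of 0.1, and the weakly counted Tet1, Kdm4d, Prmt8 and Hdac9 are limited by depth.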
